A study of Mus musculus with 10 samples.

Results

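Transforming growth factor beta (TGF-beta) signaling was examined through 9 genes: the ligands Tgfb1, Tgfb2 and Tgfb3, the receptors Tgfbr1, Tgfbr2 and Tgfbr3, and the intracellular mediators Smad2, Smad3 and Smad7. They were chosen by gene symbol, out of 22180 genes with a named probe set, and each of the 9 had 1 probe set. Expression was measured in whole aortas of male mice on a C57BL/6 background (also written C57B/L6 in the labels) with Affymetrix Mouse Gene 2.0 ST arrays. All animals lacked apolipoprotein E (ApoE), which leaves them hyperlipidemic. One group of 5 was ApoE-/-, and the other group of 5 was ApoE-/-/IL-17-/-, called the double knockout, made by crossing IL-17-/- mice into the ApoE-/- line. A high fat diet was given from 8 to 11 weeks of age, that is for 3 weeks, and aortas were taken at its end. These are germline deletions, so cells outside the aorta lacked the genes as well. The labels call the 5 arrays of a group biological replicates and do not say whether an array held RNA of 1 mouse or of several, so p-values measure the spread between these arrays. The protocol given for the ApoE knockout arrays names wild-type and caspase-1 deficient animals and leaves out IL-17. Whether both groups were raised and hybridized together is not stated, so a batch cannot be told apart from genotype.

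TGF-beta ligands are secreted bound to a latency peptide and are stored in the matrix until integrins or proteases release them. The active ligand binds the type II receptor Tgfbr2, which recruits and activates the type I receptor Tgfbr1, and Tgfbr1 then phosphorylates Smad2 and Smad3. Smad7 is switched on by the pathway and shuts the type I receptor down. In the artery wall the pathway is known for driving smooth muscle differentiation and the synthesis of collagen and elastic fibers, and mutations in its ligands, receptors and Smads can cause human aortic aneurysm.

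Values are log2 signals, and differences are double knockout minus ApoE knockout. Of all 22180 genes, 6721 (30.3%) had an adjusted p below 0.05 by limma, termed called here, 22.8% higher and 7.53% lower, with a median log2 difference of 0.10. Olfactory, vomeronasal and taste receptor genes, which serve as a measure of background signal, had a median difference of 0.29, and the 95th percentile of their mean levels was 5.80. All 9 TGF-beta genes lay above that level. Among the 13527 genes above it, 25.2% were called, 14.3% higher and 10.9% lower, and the median difference was 0.01. Il17a ranged from 4.20 to 4.54 in ApoE knockout arrays and from 4.48 to 4.94 in double knockout arrays, below the receptor gene level in every array, and where its probes lie relative to the deletion is not stated here, so it does not check the genotype. Apoe, which both groups lack by genotype, ran from 6.07 to 6.47 and from 6.83 to 7.26, above that level in every array and called higher in the double knockout (0.67, limma adjusted p = 0.0011). It therefore does not check the deletion either. All 10 smooth muscle markers lay above the receptor gene level (Acta2 mean 13.40 and 13.52, Myh11 12.27 and 12.66). So did all 8 white adipocyte markers and 13527 of the 22180 genes, so this does not single out the aorta.

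Both the ligands and the receptors held genes with differences of either sign. Tgfb2 and Tgfb3 rose in the double knockout aorta, by 1.31-fold and 1.19-fold, and Tgfb1 did not pass the test, with a mean 1.16-fold lower. Among the receptors, Tgfbr1 rose 1.20-fold, Tgfbr2 fell, to a level 1.16-fold lower, and Tgfbr3 did not pass. None of Smad2, Smad3 and Smad7 passed, and Smad7 had the largest difference of the 3, at 1.23-fold lower. In all, 3 of the 9 genes were called higher and 1 lower (44.4% called, where 30.3% of all genes and 25.2% of those above the receptor gene level were), and their median log2 difference was 0.013. The groups did not overlap in 1 of the 9 genes, Tgfb3, against 20.4% of all genes (15.6% higher, 4.8% lower). Whole aortas were measured, so fewer cells of a type and less RNA per cell cannot be told apart.

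**Figure D1:**
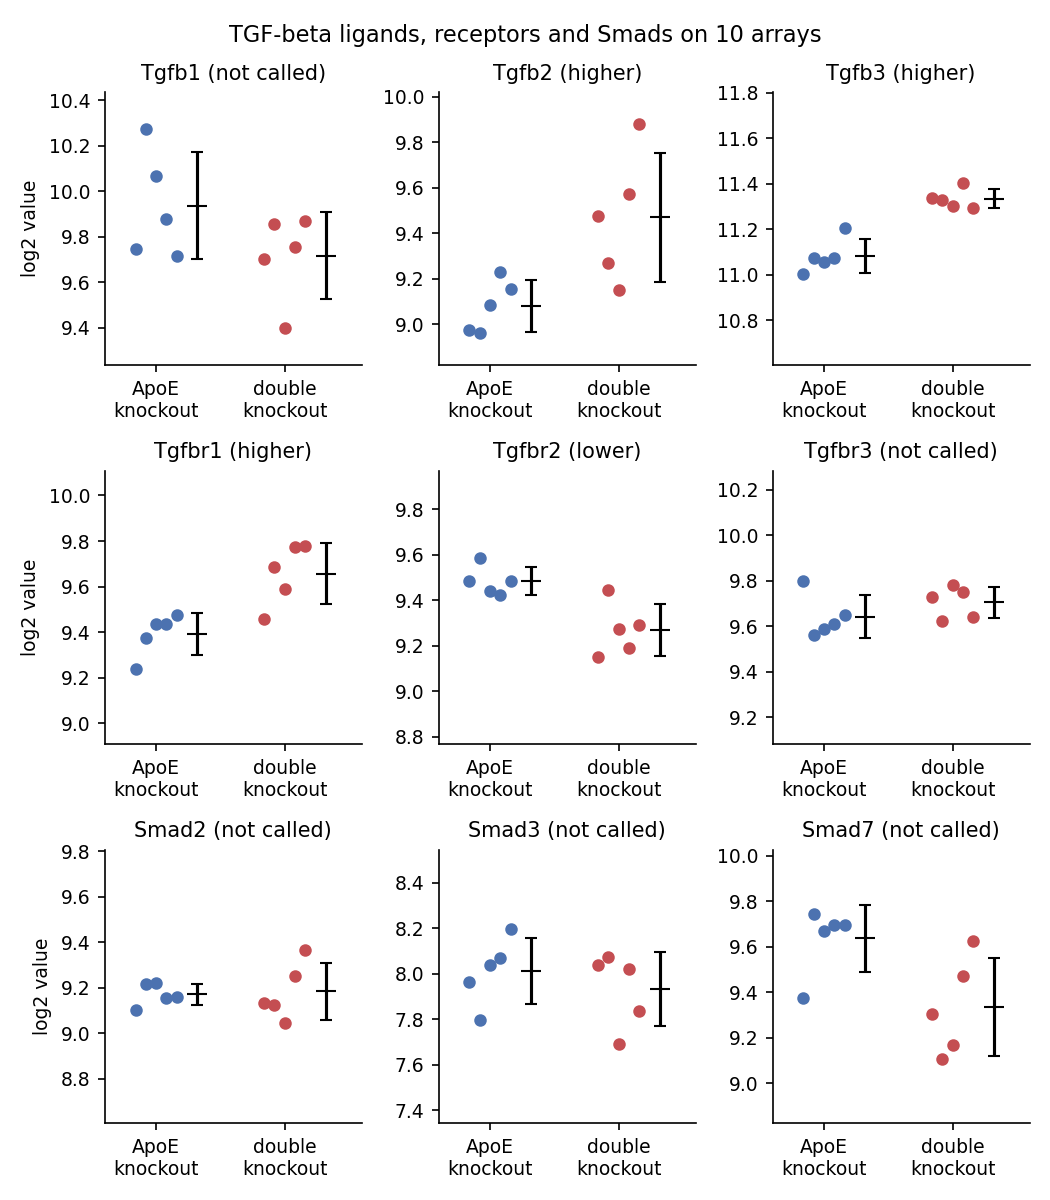
Log2 value (y axis, each panel spanning 1.2 units) of the 9 genes in ApoE knockout and double knockout aortas. Each point is 1 array, drawn from replicate 1 on the left to replicate 5 on the right, and the bar shows the mean and SD of 5 arrays. Every double knockout point lies above every ApoE knockout point for Tgfb3, and 4 of 5 do for Tgfb2 and Tgfbr1, while 4 of 5 lie below for Tgfbr2.

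The bases just upstream of the RefSeq gene starts of Tgfb1 and Tgfb2 (build GRCm38.p6, 250 bases each) are shown because these genes had differences of opposite sign. Only that of Tgfb2 was called. Capitals mark matches, on either strand, to the Sp1 GC box GGGCGG, the CCAAT box, the TATA box as TATAAA, the E-box as CACGTG, the Smad-bound core CAGAC, the cAMP response motif TGACG or the AP-1 site TGANTCA. No match overlapped another, and a match on the opposite strand reads as the reverse complement, such as ATTGG for the CCAAT box.
Tgfb1, chr7:25686752-25687001, + strand: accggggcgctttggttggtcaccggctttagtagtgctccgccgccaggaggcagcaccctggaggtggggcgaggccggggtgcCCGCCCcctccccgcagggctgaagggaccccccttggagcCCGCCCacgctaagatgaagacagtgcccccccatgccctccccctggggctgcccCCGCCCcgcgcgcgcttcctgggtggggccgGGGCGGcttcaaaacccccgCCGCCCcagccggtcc
Tgfb2, chr1:186705990-186706239, - strand: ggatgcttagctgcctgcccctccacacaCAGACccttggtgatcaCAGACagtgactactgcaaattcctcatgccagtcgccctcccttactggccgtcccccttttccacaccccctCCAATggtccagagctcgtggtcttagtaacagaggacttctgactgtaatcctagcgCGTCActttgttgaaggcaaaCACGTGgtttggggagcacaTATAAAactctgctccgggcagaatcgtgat
The Tgfb1 window was 75.2% G and C and held 5 matches to GGGCGG, a motif found in 32.7% of 32851 windows of the same length, and no match to the other 6. The Tgfb2 window was 53.6% G and C, near the median of 52.4%, and held TATAAA 31 bases before the start (in 12.4% of windows), CACGTG 51 bases before it (6.02%), TGACG at 72 bases (17.8%), CCAAT at 130 bases (33.8%) and 2 copies of CAGAC at 204 and 221 bases (42.2%). A match shows only that these letters are in the window. Promoter sequence was matched for 5 of the 9 genes. Tgfb3 and Tgfbr3 had no window among the promoters used, while Smad2 and Smad7 were left out of the matching by choice.

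Tgfb1, the ligand stored in platelets and made by many immune cells, had log2 values of 9.74, 10.27, 10.07, 9.88 and 9.71 in ApoE knockout replicates 1 to 5. In double knockout replicates 1 to 5 it was 9.70, 9.85, 9.40, 9.75 and 9.87. All 5 double knockout arrays lay below the ApoE knockout median, but 3 of them lay inside the ApoE knockout range. The difference of -0.22 (SE 0.13, 95% interval -0.49 to 0.055) did not pass (limma adjusted p = 0.20, n = 5 per group), and it stayed uncalled whichever array was left out. It passed only after the arrays were centred on the median over all probe sets (-0.42, adjusted p = 0.026).

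Markers of blood cells were set beside Tgfb1, which was not called. All 9 measured platelet markers were called lower, where 7.53% of all genes were. The mean log2 level of that list ran from 8.83 to 9.35 in ApoE knockout arrays and from 7.36 to 7.94 in double knockout arrays. In the ApoE knockout, the T cell list (8.50, 8.11, 7.85, 6.89 and 6.54 in replicates 2, 3, 4, 1 and 5) ranked the arrays as Tgfb1 did, from replicate 2 at the top to replicate 5 at the bottom. In the double knockout both were lowest in replicate 3 (6.14 for the T cell list), but the T cell list was highest in replicate 1 (7.10) and Tgfb1 in replicate 5. The platelet list did not rank the ApoE knockout arrays as Tgfb1 did, being highest in replicate 1 (9.35). In the double knockout it was, like Tgfb1, highest in replicate 5 (7.94) and lowest in replicate 3 (7.36). The macrophage list ran from 9.31 to 9.68 and from 8.93 to 9.75, highest in ApoE knockout replicate 3 and double knockout replicate 2. In the ApoE knockout the B cell and mast cell lists were highest in replicate 1 (7.23 and 7.16) and lowest in replicate 5 (6.47 and 6.28). There the neutrophil list was highest in replicate 4 (7.87) and lowest in replicate 1 (6.36). Several lists were read in this way, so a shared order in 1 of them carries little weight. The part of these cells in the Tgfb1 values was not tested.

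Tgfb2, the isoform known for its need in heart and great vessel development, had log2 values of 8.97, 8.96, 9.08, 9.23 and 9.15 in ApoE knockout replicates 1 to 5. In the double knockout they were 9.48, 9.27, 9.15, 9.57 and 9.88. Only replicate 3 of the double knockout lay within the ApoE knockout range, and the other 4 lay above it. The spread was also wider in the double knockout (SD 0.28 against 0.11). The rise of 0.39 (SE 0.13, 95% interval 0.11 to 0.66, limma adjusted p = 0.037) kept its sign whichever array was left out, ranging from 0.29 to 0.47. It no longer passed when ApoE knockout replicate 1 (adjusted p = 0.071), 2 (0.078) or 3 (0.068) was left out, or double knockout replicate 1 (0.063), 4 (0.078) or 5 (0.061).

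Tgfb3, the isoform known for its role in palate fusion, was the only one of the 9 genes whose groups did not overlap. It had log2 values of 11.00, 11.07, 11.06, 11.07 and 11.21 in ApoE knockout replicates 1 to 5 and 11.34, 11.33, 11.30, 11.40 and 11.29 in double knockout replicates 1 to 5. The groups were separated by a gap between 11.21 and 11.29. The rise of 0.25 (SE 0.062, 95% interval 0.12 to 0.39, limma adjusted p = 0.012) was called whichever array was left out, with adjusted p between 0.0091 and 0.031. It was not called once the arrays were centred on the median over all probe sets (0.05, adjusted p = 0.62). Of the smooth muscle markers 3 of 10 were called higher and 0 lower, near the 30.3% called of all genes, and the list level was 10.96 to 11.49 in ApoE knockout arrays and 11.42 to 11.49 in double knockout arrays. The arrays were not ordered alike: replicate 5 was highest of the ApoE knockout arrays in both Tgfb3 and that list, while among the double knockout arrays replicate 5 was lowest in Tgfb3 and highest in the list (11.49). Fibroblast markers (3 of 9 higher, 0 lower) ran from 11.32 to 11.40 and from 11.35 to 11.66, and the part of either cell type in the Tgfb3 value was not tested.

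The signaling receptors are shown next in the same way, since they too had differences of opposite sign, with capitals as above.
Tgfbr1, chr4:47352972-47353221, + strand: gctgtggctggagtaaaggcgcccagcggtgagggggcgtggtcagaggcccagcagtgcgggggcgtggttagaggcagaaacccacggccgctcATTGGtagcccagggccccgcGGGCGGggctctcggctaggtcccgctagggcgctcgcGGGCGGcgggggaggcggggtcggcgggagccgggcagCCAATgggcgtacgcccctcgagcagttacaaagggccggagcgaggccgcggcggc
Tgfbr2, chr9:116175364-116175613, - strand: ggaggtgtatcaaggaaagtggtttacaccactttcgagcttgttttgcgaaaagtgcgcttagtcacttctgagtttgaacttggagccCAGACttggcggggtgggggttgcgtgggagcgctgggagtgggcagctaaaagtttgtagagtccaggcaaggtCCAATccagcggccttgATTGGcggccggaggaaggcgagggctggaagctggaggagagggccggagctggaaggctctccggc
The Tgfbr1 window, at the upstream one of 2 starts in the table, was 74.8% G and C and held 2 matches to GGGCGG, at 95 and 133 bases before the start, and 2 to CCAAT, at 57 and 154 bases. The Tgfbr2 window was 58.4% G and C, with 2 matches to CCAAT at 68 and 85 bases, 1 to CAGAC at 160 bases and none to GGGCGG. Neither held TATAAA.

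Tgfbr1, the type I receptor kinase that phosphorylates the Smads, had log2 values of 9.24, 9.37, 9.43, 9.44 and 9.48 in ApoE knockout replicates 1 to 5. In the double knockout it was 9.46, 9.69, 9.59, 9.78 and 9.78. Double knockout replicate 1 lay just inside the ApoE knockout range, and the other 4 lay above it. The rise of 0.27 (SE 0.081, 95% interval 0.087 to 0.44, limma adjusted p = 0.030) ranged from 0.23 to 0.32 when single arrays were left out. It missed the threshold when ApoE knockout replicate 1 (adjusted p = 0.063), 2 (0.059) or 3 (0.051) was left out, or double knockout replicate 4 (0.070) or 5 (0.065).

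Tgfbr2, the type II receptor that binds the ligand, went the other way. Its log2 values were 9.48, 9.58, 9.44, 9.42 and 9.49 in ApoE knockout replicates 1 to 5, against 9.15, 9.44, 9.27, 9.19 and 9.29 in double knockout replicates 1 to 5. Double knockout replicate 2 lay inside the ApoE knockout range, and the other 4 lay below it. The fall of 0.22 (SE 0.072, 95% interval -0.37 to -0.058) was close to the threshold (limma adjusted p = 0.042, n = 5 per group). It was called in only 1 of the 10 fits that left out an array, the one without double knockout replicate 2 (adjusted p = 0.017). In the others adjusted p was 0.066, 0.094, 0.066, 0.057 and 0.065 without ApoE knockout replicates 1 to 5 and 0.084, 0.072, 0.091 and 0.063 without double knockout replicates 1, 3, 4 and 5, and the difference stayed between -0.26 and -0.19. After quantile normalization the call was lost as well (-0.18, adjusted p = 0.076).

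Endothelial markers were set beside Tgfbr2. Of 10, 2 were called lower and 0 higher (median log2 difference -0.26), where 7.53% of all genes were called lower and 22.8% higher. The 2 were the angiopoietin receptor gene Tek (-0.46, SE 0.14, limma adjusted p = 0.028) and Pecam1 (-0.28, SE 0.09, adjusted p = 0.041). The list level ran from 10.11 to 10.35 in ApoE knockout arrays and from 9.79 to 10.22 in double knockout arrays. In the ApoE knockout, replicate 2 was highest in both Tgfbr2 and the list, but replicate 4 was lowest in Tgfbr2 and replicate 1 in the list, and in the double knockout replicate 2 was highest and replicate 1 lowest in both. The part of endothelial cells in the Tgfbr2 value was not tested.

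Tgfbr3, also called betaglycan, presents ligand to the signaling receptors and has most effect for Tgfb2. Its log2 values ran from 9.56 to 9.80 in ApoE knockout arrays and from 9.62 to 9.78 in double knockout arrays, so that all 5 double knockout arrays lay inside the ApoE knockout range. The difference was 0.062 (SE 0.069, 95% interval -0.089 to 0.21, limma adjusted p = 0.51). The interval leaves room for a change in either direction.

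Smad2 and Smad3, the signal carriers, overlapped between the groups. Smad2 ran from 9.10 to 9.22 in ApoE knockout arrays and from 9.04 to 9.37 in double knockout arrays, with a difference of 0.013 (SE 0.073, 95% interval -0.15 to 0.17, limma adjusted p = 0.91). Smad3 ran from 7.80 to 8.20 and from 7.69 to 8.07, with a difference of -0.080 (SE 0.097, 95% interval -0.29 to 0.13, adjusted p = 0.55). Of the 10 arrays left out in turn, none brought either gene past the threshold.

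Smad7, the inhibitory Smad that the pathway switches on, had log2 values of 9.38, 9.74, 9.67, 9.70 and 9.70 in ApoE knockout replicates 1 to 5. In the double knockout it was 9.31, 9.11, 9.17, 9.47 and 9.63. Apart from ApoE knockout replicate 1, which was low, every ApoE knockout array lay above every double knockout array. The difference of -0.30 (SE 0.11, 95% interval -0.54 to -0.058) missed the threshold (limma adjusted p = 0.060). It passed without ApoE knockout replicate 1 (-0.37, adjusted p = 0.029), without double knockout replicate 5 (-0.37, adjusted p = 0.024), with a trend and robust prior (adjusted p = 0.042) and after centring on the median over all probe sets (-0.50, adjusted p = 0.0069).

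The difference between 2 genes within an array does not move when the whole array is shifted, so it was used to compare the genes pair by pair. Tgfbr1 minus Tgfbr2 was -0.25, -0.21, -0.0065, 0.013 and -0.0097 in ApoE knockout replicates 1 to 5 and 0.31, 0.24, 0.32, 0.59 and 0.49 in the double knockout. The groups did not overlap, and the mean difference between them was 0.48. This pair joins a gene called higher with a gene called lower, so its separation adds little to those calls. Groups did not overlap in 20.4% of single genes, and the share of gene pairs was not counted. Tgfb1 minus Tgfb2 was 0.86 ± 0.30 in ApoE knockout and 0.25 ± 0.21 in double knockout arrays (mean ± SD, n = 5), and 4 of 5 double knockout arrays lay below the whole ApoE knockout range. Tgfb1 minus Tgfb3 was -1.15 ± 0.26 and -1.62 ± 0.19, with 3 of 5 arrays below that range. Tgfb2 minus Tgfb3, with -2.00 ± 0.10 and -1.86 ± 0.28, overlapped, as did Smad7 minus Smad3, with 1.62 ± 0.20 and 1.40 ± 0.28. Such a difference does not show which gene of a pair changed, and no test was made on any of the 5 pairs.

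**Figure D2:**
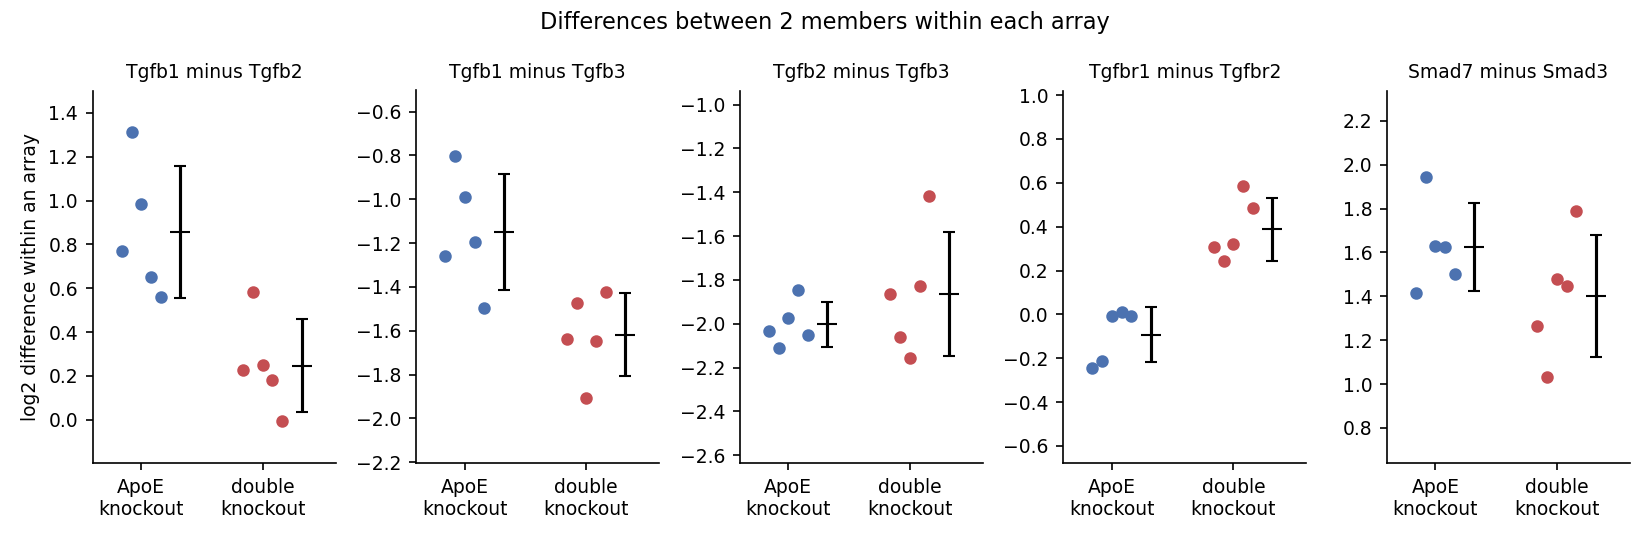
Difference in log2 value between 2 genes of the same array (y axis, each panel spanning 1.7 units) for 5 pairs, with 1 point per array and the mean and SD of 5 arrays beside them. The receptor pair, a gene called higher and a gene called lower, separates the groups. Its highest ApoE knockout value is 0.013 and its lowest double knockout value is 0.24.

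How the arrays are scaled decided which of the 9 genes were called. The array median (all probe sets) averaged 5.79 ± 0.02 in ApoE knockout and 5.99 ± 0.03 in double knockout arrays (mean ± SD, n = 5), while the upper quartile averaged 7.59 ± 0.02 and 7.63 ± 0.03. Setting all array medians equal therefore lowered every double minus ApoE value by the gap between those medians. On that scale Tgfbr2 (-0.42, limma adjusted p = 0.0032), Smad7 and Tgfb1 were called lower, no gene was called higher, and Tgfb2 (0.18, adjusted p = 0.28), Tgfb3 (0.05, adjusted p = 0.62) and Tgfbr1 (0.06, adjusted p = 0.63) kept their sign without a call. Tgfbr3 (-0.14) and Smad2 (-0.19) changed sign there, neither being called on any scale. The median log2 difference of all genes was 0.10 as deposited, -0.02 after quantile normalization and -0.11 on that scale. With quantile normalization, or with arrays centred only on genes above the receptor gene level, the same 3 genes were called higher, Tgfb2 (0.42 and 0.43), Tgfb3 (0.29 and 0.29) and Tgfbr1 (0.30 and 0.30), and none lower. On all 4 scales Tgfb2, Tgfbr1 and Tgfb3 had the 3 highest differences and Smad7, Tgfb1 and Tgfbr2 the 3 lowest.

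**Figure D3:**
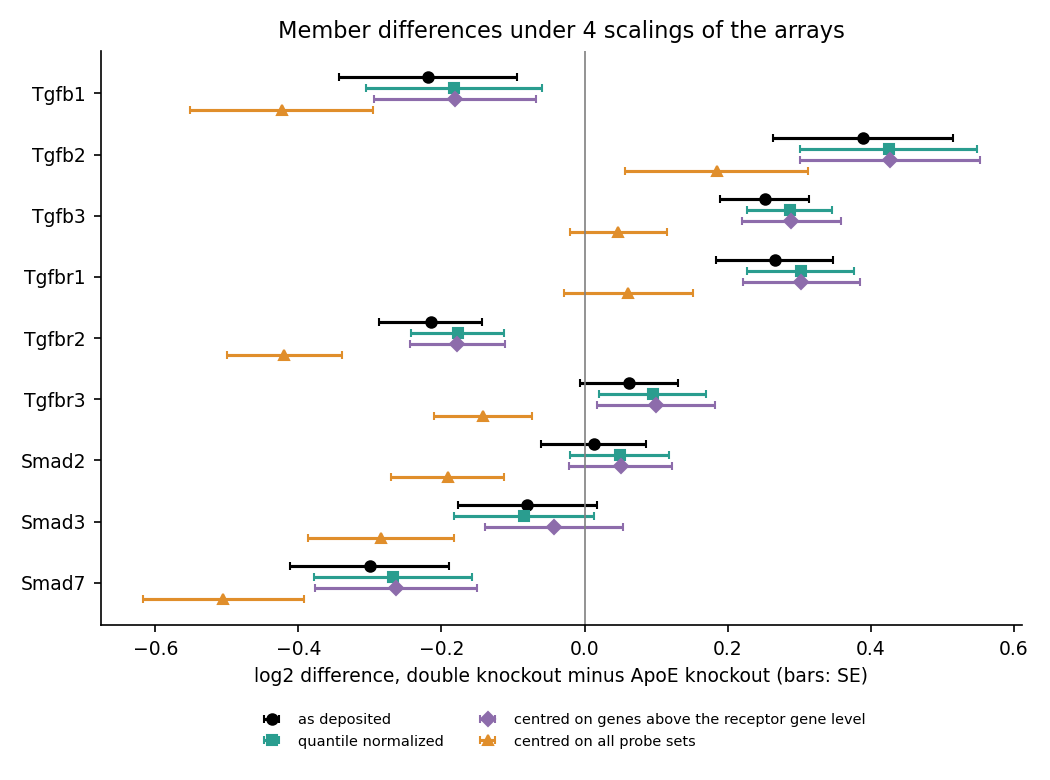
Log2 difference, double knockout minus ApoE knockout (x axis), of the 9 genes with the values as deposited and under 3 other scalings; bars are the SE from limma, with 5 arrays per group. Centring on all probe sets moves every gene to the left, and Tgfb2, Tgfb3 and Tgfbr1 stay to the right of the other 6 genes under each scaling.

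The rest of the pathway was followed through 8 gene lists. Counting each gene once, 38 of 137 genes (27.7%) were called, 23 higher and 15 lower, close to the 30.3% of all genes. When all array medians were set equal the split was 8 higher and 48 lower (40.9% called). Over all genes it was then 1669 higher and 5641 lower (33% called). Of the 38 calls, 26 were kept whichever array was left out, and 18 of these were also called under all 4 scalings, 8 higher and 10 lower.

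Among 19 genes that hold and release latent TGF-beta, 7 were called higher and 3 lower, with a median of 0.17. Of all genes 22.8% were called higher and 7.53% lower. Ltbp1, which ties the latent complex to the matrix, rose 1.62-fold (10.28 ± 0.25 against 10.98 ± 0.03, mean log2 value ± SD, n = 5, limma adjusted p = 0.0012). Itgb8, whose product forms with the alpha v chain an integrin that frees the ligand, rose 1.50-fold (7.75 ± 0.09 against 8.34 ± 0.16, adjusted p = 0.00094). Ltbp2, a family member not known to bind latent TGF-beta, rose 1.43-fold, and the membrane protease gene Mmp14 rose 1.45-fold. Ltbp1, Itgb8 and Ltbp2 were called under all 4 scalings, and Mmp14 was not called once all array medians were equal (0.33, adjusted p = 0.052). Named after their values were seen, the other 3 called higher were integrin chains, Itgav (0.24), Itgb3 (0.42) and Itgb5 (0.27), none of which was called with equal array medians, and the 3 called lower were Mmp9 (-0.50), Nrros (-0.48) and Ltbp4 (-0.21). Itgb3, Itgb5, Nrros and Ltbp4 were each uncalled in 5 or more of the 10 fits that left out an array. Lrrc32, a cell-surface anchor of latent TGF-beta (-0.43, adjusted p = 0.051), and Mmp2 (0.26, adjusted p = 0.056) did not pass. Neutrophil markers were lower beside Mmp9, with 6 of 10 called lower and 0 higher and list levels of 6.36 to 7.87 and 5.77 to 6.08, and their part in it was not tested.

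Membrane proteins that tune the receptors had calls both ways, with 3 of 10 higher and 3 lower (median 0.14). Over all genes the shares were 22.8% higher and 7.53% lower. Cd109, a membrane-anchored co-receptor that dampens TGF-beta signaling, rose 2.00-fold (8.28 ± 0.12 against 9.28 ± 0.25, limma adjusted p = 0.00025). The decoy receptor gene Bambi rose 1.33-fold, and Dab2, an adaptor that links receptors to Smads, rose 1.32-fold, though neither was called with equal array medians. Nrp1, a co-receptor of endothelial cells among others, fell (1.33-fold lower, adjusted p = 0.015). The other 2 called lower, named after their values were seen, were Eng (-0.28), the endothelial co-receptor, whose call was lost in 7 of 10 fits with an array left out and after quantile normalization (adjusted p = 0.083), and Tdgf1, at means of 5.43 and 5.01 below the receptor gene level. Cav1 (0.15) and Itfg1 (0.14) did not pass.

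Smads outside the 9 and their regulators had few calls. Of Smad1, Smad4, Smad5, Smad6 and Smad9, only Smad6, the inhibitory Smad of the BMP branch, was called (-0.31, SE 0.10, limma adjusted p = 0.040), and it was not called after quantile normalization (adjusted p = 0.051) or in 7 of the 10 fits with an array left out. Smad5 was -0.16 (adjusted p = 0.073) and the shared partner Smad4 was 0.07 (adjusted p = 0.41). Of 26 Smad regulators, 0 were called higher and 3 lower (median -0.06). The shares were 22.8% and 7.53% of all genes, and 14.3% and 10.9% of those above the receptor gene level. Usp15, a deubiquitinase that acts on the receptor complex and the Smads, was 1.79-fold lower (10.13 ± 0.22 against 9.28 ± 0.09, adjusted p = 0.00034), Nedd4l, a ubiquitin ligase of Smads, 1.42-fold lower (adjusted p = 0.0082) and the ligase gene Itch 1.22-fold lower (adjusted p = 0.017). Ski, a Smad corepressor, was -0.13 (adjusted p = 0.13), and Foxh1, below the receptor gene level, was 0.27 (adjusted p = 0.12).

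Genes known to respond to TGF-beta were mostly uncalled, with 6 of 29 higher and 1 lower, where 22.8% and 7.53% of all genes were. Their median was 0.11, near the 0.10 of all genes. Postn, the matrix protein periostin, rose 1.41-fold (12.22 ± 0.15 against 12.72 ± 0.07, limma adjusted p = 0.0016). Lox, the collagen and elastin crosslinking enzyme, rose 1.33-fold and the transcription factor gene Snai1 1.27-fold (adjusted p = 0.0081 and 0.0070), and Ltbp2 is in this list too. Lox and Snai1 were not called with equal array medians, nor Snai1 after quantile normalization (adjusted p = 0.080). The remaining calls, named after their values were seen, were Col1a1 (0.41) and Cnn1 (0.28), higher, and Smad6, lower. Neither Col1a1 nor Cnn1 was called with equal array medians, and both calls were lost without ApoE knockout replicate 1 (adjusted p = 0.052 and 0.060) or 3 (0.057 and 0.056), among others. Ccn2 (0.33, adjusted p = 0.056) and Col3a1 (0.33, adjusted p = 0.062) did not pass. Acta2, Tagln and Cnn1 also stand in the smooth muscle list and Col1a1 and Col1a2 in the fibroblast list.

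Signaling that bypasses the Smads had 1 of 13 genes called higher and 3 lower, with a median of -0.16. Of all genes 22.8% were called higher and 7.53% lower. Tab3 and Tab2, partners of the kinase TAK1, fell, to levels 1.59-fold and 1.16-fold lower (limma adjusted p = 0.00054 and 0.030), and the adaptor gene Shc1 was 1.25-fold lower. The call of Tab2 was lost after quantile normalization (adjusted p = 0.062) and in 4 of the 10 fits with an array left out. Rock1, a kinase of the actin cytoskeleton, rose 1.41-fold (10.86 ± 0.16 against 11.35 ± 0.17, adjusted p = 0.0051), a call that was lost with equal array medians (adjusted p = 0.058). Pak2 (-0.16) and Map2k3 (-0.17) did not pass.

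**Figure D4:**
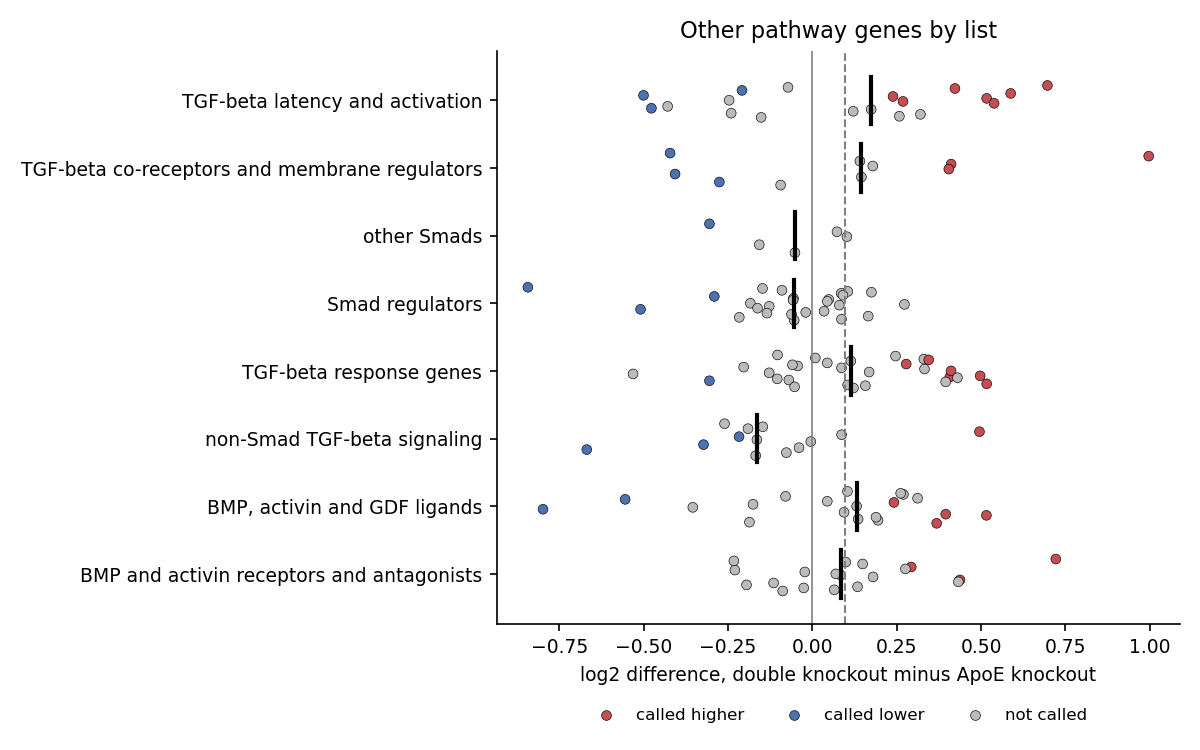
Log2 difference, double knockout minus ApoE knockout (x axis), of each measured gene in the 8 pathway lists; each point is 1 gene, red called higher, blue called lower and grey not called, with values as deposited. Black bars are list medians and the dashed line is the median of all genes, 0.10; the Smad regulators have blue but no red points.

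Blood and mast cell markers stood lower in the double knockout aorta. The counts of calls below stand beside 22.8% of all genes called higher and 7.53% called lower. Among the 15 cell type lists, levels did not overlap for platelets (all 9 markers lower), erythroid cells (4 of 6 lower; 7.25 to 8.04 against 5.90 to 6.29), B cells (4 of 9 lower), neutrophils (6 of 10 lower) and mast cells (5 of 8 lower, 1 higher). Examples are Gp9 of platelets (-2.14, SE 0.20), Slc4a1 of red cells (-3.07, SE 0.19) and Cd79b of B cells (-1.75, SE 0.16). T cell markers (4 of 11 lower, 1 higher) and macrophage markers (1 of 12 lower, Cd163 at -0.81) overlapped in level, and the macrophage count was near the share of all genes. Cardiac muscle markers were higher in 4 of 8, with levels of 6.39 to 6.88 and 6.83 to 7.73, while white adipocyte (0 of 8 called, median log2 difference -0.55), skeletal muscle (1 of 8 higher), brown adipocyte (1 of 8 higher) and Schwann cell markers (1 of 5 higher, 2 lower) overlapped. The 9 TGF-beta genes are known in several of these cell types, and no part of their differences was assigned to one.

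**Figure D5:**
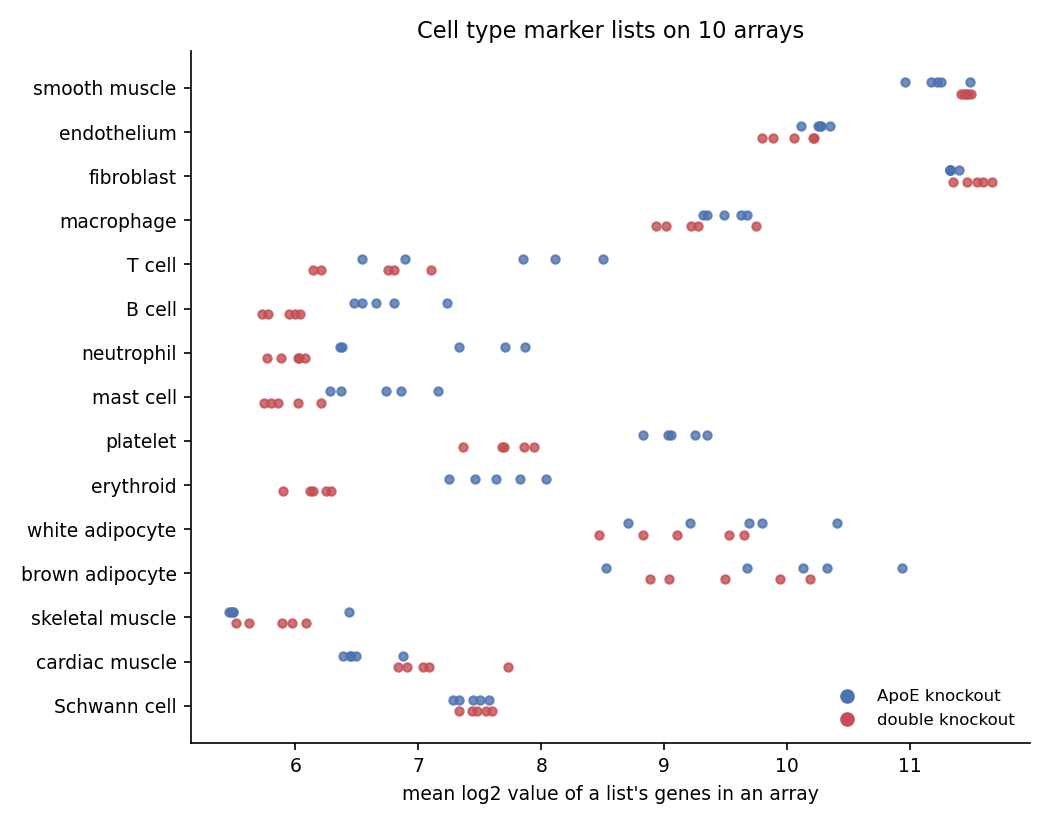
Mean log2 value of each cell type list's genes (x axis) in every array, blue for the ApoE knockout and red for the double knockout. Platelet, erythroid, B cell, neutrophil and mast cell levels separate the groups, with platelets at 8.83 to 9.35 against 7.36 to 7.94.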

How the data were processed

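The deposited values are 1 log2 number per probe set and array, for 10 arrays and 41345 probe sets. Base 2 was inferred from their range. The authors named limma, per the submitters' processing notes, without a version or its role; how background was corrected and arrays normalized is not stated in the labels. Names came from the array annotation, which gave 1 symbol to 23521 probe sets and several to 1814, left out here; the other 16010 are unnamed here. The RefSeq gene table (GRCm38.p6) held 23328 of the symbols by identifier, and 193 kept their annotated name. Where a gene had several probe sets (1082 genes), the one with the highest mean across all 10 arrays stood for it, which left 22180 genes. List names were also matched through synonyms.

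Differences between the groups were tested two-sided by lmFit and eBayes (limma 3.58.1, R 4.3.3), group being the only term, with Benjamini-Hochberg adjustment over all genes at 0.05. Adjusted p, SE and intervals come from that fit, which was tested on simulated data. The number of arrays limits the precision. Promoter windows are RefSeq's (GRCm38.p6). Figures were drawn with matplotlib 3.10.9.

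The members and lists were chosen with earlier results of these data known. Named genes are the 9 members, up to 4 called and 2 uncalled genes with the smallest p of each pathway list and up to 3 called markers of each cell type. Alternatives covered scaling, a filter on dim genes, the probe set rule, testing all probe sets, the prior, weights per array, a block for the replicate number, the threshold and leaving out arrays. Protein sequences were not used here, so the planned comparison of them was not made.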

Additional observations from a re-analysis of the deposited data

Results flagged for a closer look

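In 19 of the 228 groups of 5 values examined (86 named genes, 5 within-array differences and 23 list levels, in each genotype), the highest or lowest array stood apart from the other 4 by more than 0.71 of the group's range. Chance flags about 1 in 20 such groups, and no explanation was weighed.

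Of the 9 TGF-beta genes only Smad7 was among them, with ApoE knockout replicate 1 at 9.38 and the next array at 9.67. Pathway genes with 1 array apart were Ltbp2 (ApoE knockout replicate 1, 8.63, highest), Cd109 (double knockout replicate 3, 8.85, lowest), Smad4 (ApoE knockout replicate 5, 10.10, lowest), Usp15 (ApoE knockout replicate 2, 10.50, highest), Map2k3 (ApoE knockout replicate 5, 9.85, highest), Bmp3 (double knockout replicate 5, 8.16, highest) and Bmper (ApoE knockout replicate 4, 6.13, lowest, and double knockout replicate 2, 6.83, highest). Marker genes were Cd163 (double knockout replicate 2, 7.63, highest), Cd79b (ApoE knockout replicate 1, 8.998, highest), Slc4a1 (ApoE knockout replicate 2, 10.78, highest) and S100b (ApoE knockout replicate 1, 7.78, highest).

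Among list levels, double knockout replicate 2 was highest for latency and activation genes (9.60), and double knockout replicate 5 was lowest for BMP and activin receptors and antagonists (7.96). For cell types, ApoE knockout replicate 5 was highest in the fibroblast list (11.40), ApoE knockout replicate 2 in the skeletal muscle list (6.44), and ApoE knockout replicate 4 (6.88) and double knockout replicate 2 (7.73) in the cardiac muscle list.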

How the results depend on the processing

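The count of called TGF-beta genes, 4 of 9, became 2 when all probe sets were tested and 0 by limma at an adjusted p of 0.01, where 5 had an unadjusted p below 0.05. It ran from 1 to 4 when single arrays were left out, reaching 1 without ApoE knockout replicate 2 or 3 or double knockout replicate 4. The count over all genes, 6721, became 4460 after quantile normalization, 3506 without dim genes, 10692 over all probe sets and 2970 at 0.01, and ran from 5056 to 7022 with arrays left out. The pathway count of 38 became 17 at 0.01 and ran from 27 to 41. Called genes were higher in 75.1% of cases as deposited, 44.4% after quantile normalization, 57.4% without dim genes and 22.8% with equal array medians. Centring on genes above the receptor gene level was chosen after seeing the data.

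The labels do not say that replicate numbers pair the arrays, and group was the only term of the main fit. Deviations of same-numbered arrays correlated between -0.13 and 0.26 across genes, and 3 of 5 numbers matched best with their own. These values do not settle whether the arrays were paired. With the replicate number as a block, 6594 genes, 4 TGF-beta genes and 39 pathway genes were called; Smad6, Itgb5, Bmp1 and Tab2 lost their call and Lrrc32, Ccn2 and Bmp3 gained one. No gene named from the pathway reversed a call under any alternative. The cause of the changes was not tested, apart from the smaller or larger number of tests.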

Other observations

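The bone morphogenetic protein (BMP) and activin branches, which share Smad4 with TGF-beta, were also represented. Of 20 ligand genes 4 were called higher and 2 lower (median log2 difference 0.13), near the shares of all genes, 22.8% and 7.53%. Gdf7, a BMP family ligand, was lower by a factor of 1.74 (mean log2 values 8.48 ± 0.27 and 7.68 ± 0.14, SD, n = 5, limma adjusted p = 0.0013), and Bmp6, a ligand of endothelial cells known for its role in iron balance, was 1.47-fold lower (11.18 ± 0.26 against 10.63 ± 0.25, adjusted p = 0.015). Bmp2 rose 1.43-fold (6.09 ± 0.13 against 6.61 ± 0.22, adjusted p = 0.0056), and Bmp1, a protease that matures collagens in spite of its name, rose 1.18-fold, a call lost with equal array medians (adjusted p = 0.75) and without ApoE knockout replicate 1 (adjusted p = 0.055) or 2 (0.064) or double knockout replicate 2 (0.053) or 3 (0.054). The other 2 called higher, named after their values were seen, were Amh (0.37) and Inhbb (0.39), neither of them called after quantile normalization (adjusted p = 0.34 and 0.20), and both calls were lost in at least 4 of the 10 fits with an array left out. Bmp3 (0.27) and Lefty1 (0.26) did not pass.

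Of 19 BMP and activin receptors and antagonists 3 were called higher and 0 lower (median 0.08), below the shares of all genes, 22.8% and 7.53%. These were Bmper and 2 of the type I BMP receptors, Bmpr1a, which rose 1.35-fold (10.10 ± 0.10 against 10.53 ± 0.09, limma adjusted p = 0.0018), and Bmpr1b, which rose 1.65-fold (6.78 ± 0.33 against 7.50 ± 0.18, adjusted p = 0.0052). Both receptors were called under all 4 scalings and whichever array was left out. Acvr1, another type I receptor of the list, was not called (-0.09, adjusted p = 0.48). Bmper, a secreted BMP-binding regulator, rose 1.23-fold, but quantile normalization ended that call (adjusted p = 0.24). Grem1, a BMP antagonist (0.43, adjusted p = 0.050), and Fstl3 (0.28, adjusted p = 0.067) did not pass.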
